A study of Mus with 15 samples.

Results

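The genes described here are 9 forkhead (Fox) transcription factor genes with roles in the embryo, namely Foxa1, Foxa2, Foxb1, Foxc1, Foxc2, Foxd3, Foxf1, Foxf2 and Foxq1, out of 21887 protein-coding genes placed on the mouse mm10 chromosomes. They were chosen by name, with earlier results of these data known, so their coverage beside other genes is a description. Each was examined in a window made of the gene body plus 5 kb on each side. Within that window, the peaks of monoubiquitinated histone H2A (H2AK119ub, called H2Aub) were read from 11 lists, each list from a single ChIPmentation library. Covered length is the number of bases of a window that lie under peaks, and the widest peak is measured over its whole width, also where it runs past the window.

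The libraries came from thalami of adult mice aged 2 to 4 months that were injected with saline on 3 days and, over the next 5 days, with either cocaine at 20 mg/kg or its saline vehicle. WT mice gave 3 cocaine and 3 saline libraries, and cKO mice gave 2 cocaine and 3 saline libraries. WT mice are labelled Maged1 WT and carried the floxed Maged1 allele (genotype given as Maged1 Loxp). In Maged1 cKO mice, Cre under the vGluT2 promoter deleted Maged1, so cells that never used this promoter kept the gene, and the dissected tissue held them too. Each library pooled 3 to 4 thalami per the labels (a lower minimum of 2 appears in the study's methods), and all groups shared the saline pretreatment and the injections themselves. The protein-coding gene Maged1 had no H2Aub peak in any of the 11 libraries, so the lists do not check the deletion.

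H2Aub is placed by Polycomb repressive complex 1 and marks genes that are held silent, among them many transcription factor genes of early development. In differentiated cells such genes often lie under broad stretches of the mark rather than under narrow peaks. Forkhead factors bind DNA through a winged-helix domain. Foxa1 and Foxa2 are pioneer factors of endoderm, and Foxa2 also specifies the floor plate and midbrain dopamine neurons. Foxb1 is used in the developing diencephalon and Foxd3 in the neural crest. Foxc1 and Foxc2 act in mesoderm and vessels, Foxf1 and Foxf2 in mesenchyme and mural cells, and Foxq1 in epithelia and brain endothelium.

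The lists held 7271 to 80713 peaks over 4.24 to 27.6 Mb, with no read counts, so the depth behind them is unknown. The cKO cocaine replicate 1 and cKO saline replicate 1 libraries stood apart, with 54653 and 80713 peaks of median width 206 and 198 bp, against 7271 to 26055 peaks of 242 to 429 bp elsewhere. Their highest fold enrichments over input were 31.2 and 52.6, against 5.98 to 12.2 in the other 9 libraries. For comparisons that use these libraries, values without them are given as well where stated. The exact permutation tests between 2 groups compare 3 with 3 or 2 with 3 libraries and cannot give a p under 0.10. They therefore measure only where the groups lie relative to the spread between these pooled samples.

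All 9 genes carried H2Aub peaks in all 11 libraries. Of all protein-coding genes, 1479 did so, or 6.76%. By covered length the 9 genes had a median rank within the top 0.621 to 1.46% of protein-coding genes of each library. The lowest-ranked gene, Foxq1 in every library, was still within the top 1.44 to 5.13%. Across the 9 windows together, 68709 to 110241 bp were under peaks in a library. The peaks were wide for their lists. The median over the 9 genes of the widest peak was 16162, 8060 and 7577 bp in the WT cocaine libraries and 6058, 4711 and 5625 bp in the WT saline libraries. It was 6447 and 9943 bp in cKO cocaine and 4388, 5772 and 3733 bp in cKO saline libraries. Over the 1479 genes with a peak in every library, the same median was 619 to 2447 bp. Each of the 9 genes had a peak of 5 kb or wider in at least 1 library, as did 1.92% of protein-coding genes. Foxd3 had such a peak in every library, as did 0.151% of protein-coding genes.

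**Figure D1:**
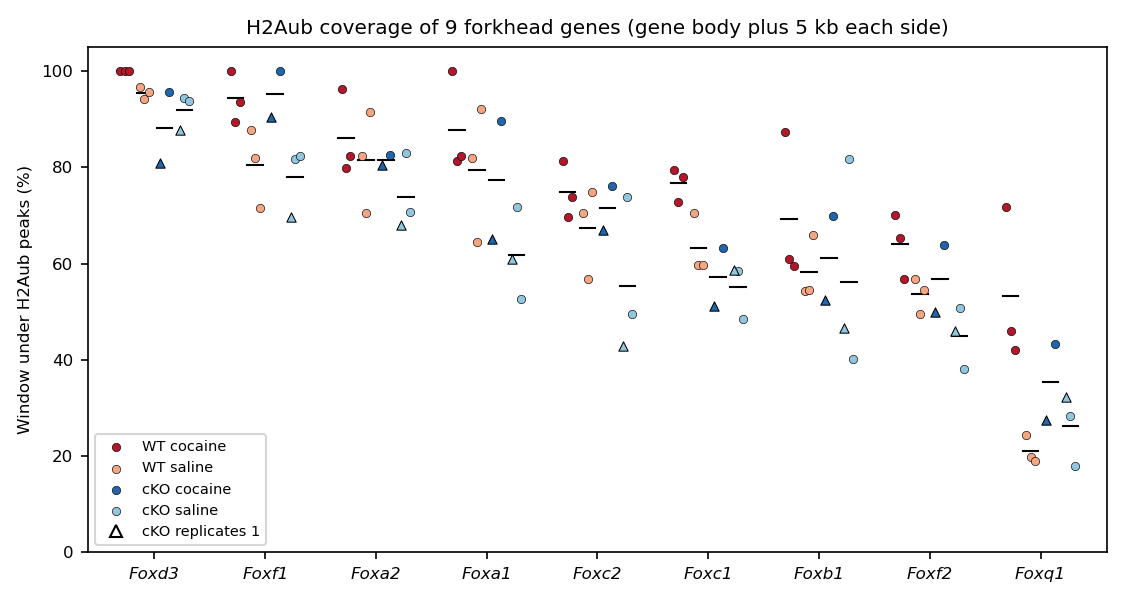
Share of each gene window (gene body plus 5 kb on each side) under H2Aub peaks, in percent, for 9 forkhead genes ordered by their mean. Each point is a library, bars are group means, and triangles mark cKO cocaine replicate 1 and cKO saline replicate 1. Foxd3 lies between 80.9 and 100%, whereas Foxq1 runs from 17.9 to 71.8%, with every WT cocaine library above every WT saline library and cKO cocaine replicate 2 among the WT cocaine libraries.

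The genes differed in how much of the window was covered. Foxd3 was the most covered, with 94.5% ± 5.74 of its window under peaks (mean ± SD over all 11 libraries, whatever their group). It was followed by Foxf1 (86.2% ± 10.0), Foxa2 (80.7% ± 8.59) and Foxa1 (76.5% ± 14.7). Foxc2 (66.9% ± 12.1), Foxc1 (63.6% ± 10.3), Foxb1 (61.2% ± 14.2) and Foxf2 (54.7% ± 9.27) formed the middle of the order, and Foxq1 came last (33.8% ± 16.1). Without the 2 libraries that stood apart the order was the same, from 96.7% ± 2.61 at Foxd3 to 34.7% ± 17.8 at Foxq1 (SD, n = 9 libraries). Over all 11 libraries, neighbours in this order differed by less than the larger of their 2 SDs, except Foxf2 and Foxq1. The plot of window coverage by library shows this order with every library as a point.

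Foxa1 (Gene ID 15375) lies on chromosome 12 at 57540628 to 57548029, and its higher-coordinate end overlaps Ttc6, a protein-coding gene of 191208 bp. The WT cocaine libraries had 17402, 14142 and 14316 bp of the Foxa1 window under peaks, and the WT saline libraries 14242, 11235 and 16013 bp. In cKO mice, cocaine libraries had 11330 and 15582 bp and the cKO saline libraries 10617, 12479 and 9175 bp. In WT cocaine replicate 1, the whole window lay inside a single peak of 22926 bp, the widest peak at any of the 9 genes. In covered length the treatment groups overlapped in both genotypes. The widest peak, however, was 6447 and 17439 bp in cKO cocaine and 5944, 4454 and 3406 bp in cKO saline libraries, which did not overlap. Of the Ttc6 body, only 1.6 to 4.37% was covered, so the mark at this locus stayed mostly with the Foxa1 end.

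Foxa2 (Gene ID 15376) lies on chromosome 2 at 148042877 to 148046969, next to the long non-coding RNA gene 9030622O22Rik. WT cocaine libraries had 13557, 11268 and 11618 bp under peaks and WT saline libraries 11619, 9947 and 12909 bp. The cKO cocaine libraries had 11355 and 11631 bp, and the cKO saline libraries 9591, 11707 and 9959 bp. These values varied little, and 49.4% of the window (6964 bp) was under a peak in all 11 libraries. The longest stretch shared by all libraries, 3244 bp from 148038025 to 148041268, lay outside the gene body on its lower-coordinate side. Both pioneer factor genes thus had treatment groups that overlapped in covered length, with differences between WT cocaine and WT saline of 1457 bp (SE 1751) at Foxa1 and 656 bp (SE 1114) at Foxa2. Both differences rested on single libraries. Without WT cocaine replicate 1 they were 399 bp at Foxa1 and −48.7 bp at Foxa2, and without WT saline replicate 2 they were 159 and −116 bp.

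Foxb1 (Gene ID 64290), a gene of the developing diencephalon from which the thalamus forms, lies on chromosome 9 at 69757710 to 69760940. Its window had 11549, 8060 and 7878 bp under peaks with cocaine and 7175, 7203 and 8734 bp with saline in WT mice. It had 6927 and 9248 bp in cKO cocaine and 6158, 10803 and 5323 bp in cKO saline libraries. The coverage of Foxb1 was lopsided. Of the 5 kb on the higher-coordinate side, 56.1 to 100% was covered, against 0 to 66.4% of the 5 kb on the other side. The mark ran from the gene into B230323A14Rik, a long non-coding RNA gene that begins just past it and had peaks in its body in all 11 libraries. A stretch of 2679 bp that begins in the Foxb1 body was covered in every library, and 1682 bp of the window were covered in none.

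Foxd3 (Gene ID 15221), a neural crest factor gene, lies on chromosome 4 at 99656299 to 99658671, with no other gene of the table in its window. All 3 WT cocaine libraries had the whole window of 12373 bp under peaks. WT saline libraries had 11961, 11660 and 11829 bp, cKO cocaine libraries 10007 and 11834 bp, and cKO saline libraries 10855, 11683 and 11611 bp. The WT cocaine values were thus capped by the window, and the width of the peak shows the difference without that cap. Each WT cocaine library had 1 peak over the window, of 15856, 15881 and 16370 bp. Each WT saline library had 2 peaks, the wider of 8703, 8440 and 9214 bp, separated by an uncovered stretch of 412, 713 and 544 bp that began inside the gene body. Peaks joined over gaps of at most 1 kb made a domain of 15856, 15881 and 16370 bp with cocaine and of 16129, 16455 and 17363 bp with saline in WT mice. The domain at Foxd3 was therefore no longer in WT cocaine than in WT saline libraries, but it was called without a break. The widest peak was 6120 and 7414 bp in cKO cocaine and 5785, 7460 and 11118 bp in cKO saline libraries. In 10 of the 11 libraries, the higher-coordinate edge of this domain lay 6424 to 6948 bp from the gene midpoint, and in cKO cocaine replicate 1 a gap of 1558 bp put it at 857 bp. The map of peaks around the gene midpoints shows this edge.

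**Figure D2:**
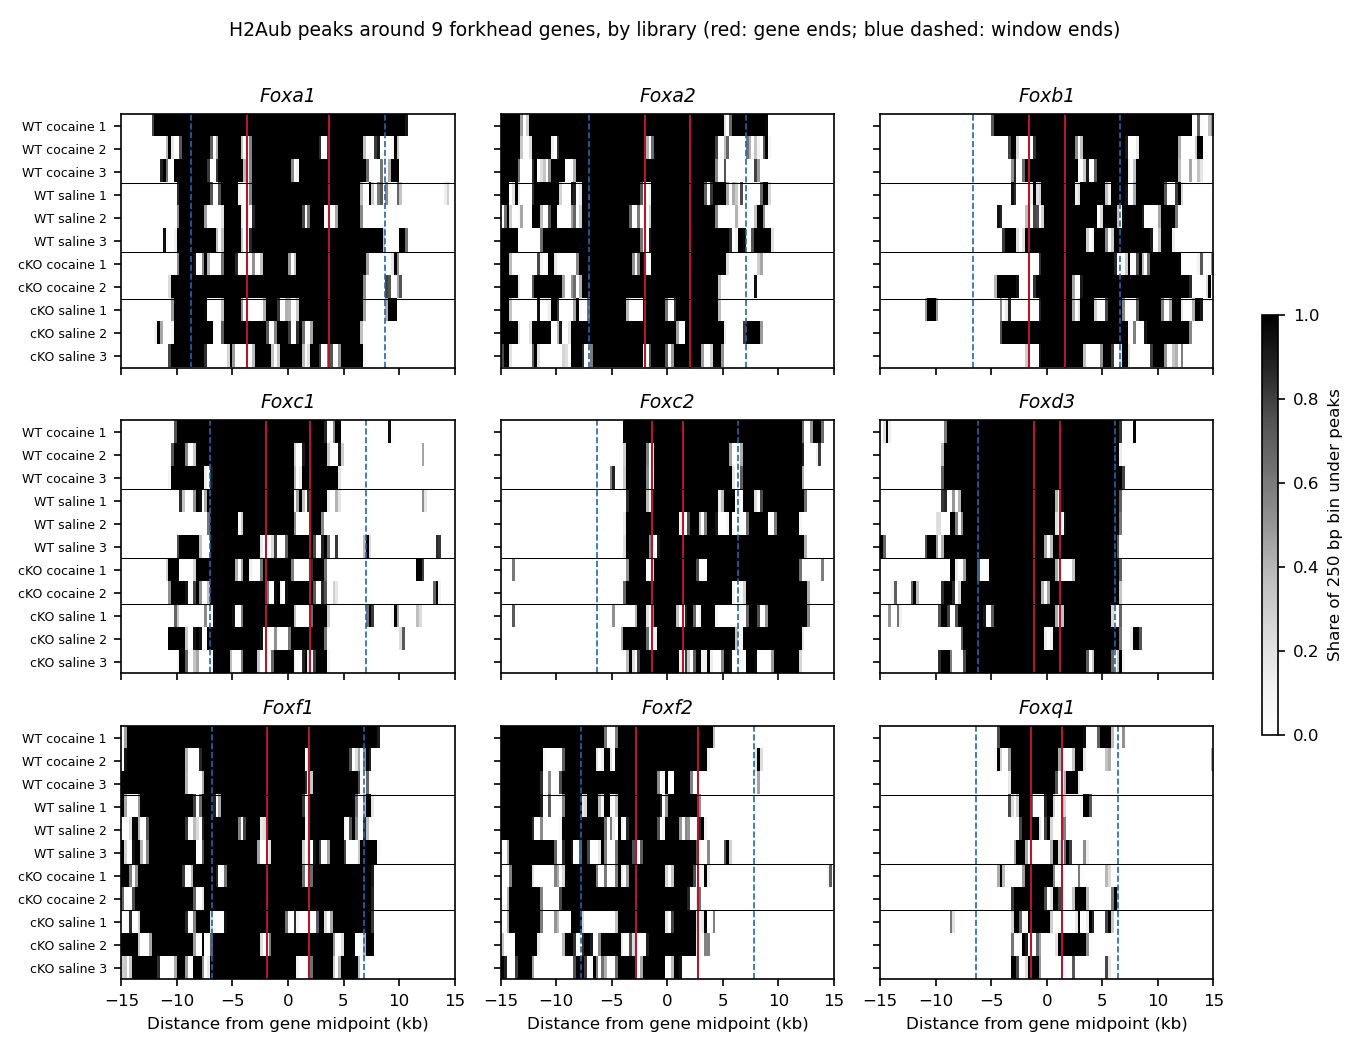
Share of each 250 bp bin under H2Aub peaks (white 0, black 1) within 15 kb of the midpoint of 9 forkhead genes, with a row for each library. Red lines mark the gene ends and dashed blue lines the window ends. Foxd3 is covered from end to end without a gap in the 3 WT cocaine rows, and Foxb1, Foxc1, Foxc2 and Foxf2 are bare towards 1 end of the window.

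Foxc1 (Gene ID 17300), Foxf2 (Gene ID 14238) and Foxq1 (Gene ID 15220) lie on chromosome 13, and Foxf1 (Gene ID 15227) and Foxc2 (Gene ID 14234) on chromosome 8. At Foxc1 (31806646 to 31810635), WT cocaine libraries had 11103, 10176 and 10907 bp under peaks and WT saline libraries 9853, 8349 and 8343 bp. In cKO mice, cocaine libraries had 7161 and 8837 bp and the cKO saline libraries 8208, 8171 and 6772 bp. All cKO values were below all WT cocaine values, and the cKO saline values were also below all WT saline values. The 5 kb on the lower-coordinate side of Foxc1 were 61.9 to 100% covered, and the 5 kb on the other side, towards the gene Gmds, 19 to 51%.

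At Foxf2 (31625816 to 31631406), WT cocaine libraries had 10934, 10190 and 8840 bp under peaks and WT saline libraries 8848, 7730 and 8507 bp. The cKO cocaine libraries had 7794 and 9946 bp and the cKO saline libraries 7181, 7914 and 5928 bp. The lowest WT cocaine value was just under the highest WT saline value in covered length (8840 against 8848 bp), but the groups did not overlap in the widest peak, which was 10934, 8276 and 8822 bp after cocaine and 4056, 3934 and 5103 bp after saline in WT mice. The coverage of Foxf2 stopped near the gene on the higher-coordinate side, where 0 to 25.8% of the 5 kb was under peaks. On the lower-coordinate side it was 38.1 to 100%.

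Foxq1 (31558170 to 31560976) was the least covered of the 9 genes and, in covered length, had the largest difference between treatments of the 9 in WT mice. WT cocaine libraries had 9194, 5888 and 5379 bp under peaks, and WT saline libraries 3125, 2546 and 2419 bp. In cKO mice, cocaine libraries had 3516 and 5544 bp, and the cKO saline libraries 4147, 3617 and 2294 bp. The mean of the WT cocaine libraries was 2.53 times that of the WT saline libraries, a difference of 4124 bp (SE 1215, exact permutation test, two-sided p = 0.1, 3 against 3). In covered length of the window the cKO groups overlapped, and cKO cocaine replicate 2 lay among the WT cocaine libraries while replicate 1 lay below them. The widest peak at Foxq1 was 7930, 4486 and 4230 bp after cocaine and 1238, 1740 and 973 bp after saline in WT mice. It was 2758 and 3143 bp in cKO cocaine and 2090, 2683 and 1182 bp in cKO saline libraries. Of the gene body, 83.3 to 100% was covered in WT cocaine and 23.8 to 45.1% in WT saline libraries. The same share was 72.7 and 74.5% in cKO cocaine and 61.5, 26.5 and 27.8% in cKO saline libraries. No share of other genes is given for coverage of the gene body, so these body values are a description only. No base of the Foxq1 window was covered in all 11 libraries.

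At Foxf1 (121084386 to 121088154), WT cocaine libraries had 13769, 12311 and 12874 bp under peaks and WT saline libraries 12086, 11290 and 9840 bp. The cKO cocaine libraries had 12465 and 13769 bp, above the cKO saline libraries with 9607, 11266 and 11335 bp. In covered length, Foxf1 was the only one of the 9 genes at which every cocaine library lay above every saline library in both genotypes. In the widest peak, Foxq1 was the gene with this order in both. Shares of other genes with this order are given only within each genotype, so the order in both is a description. The value of 13769 bp is the whole window, which limits how far the covered length could rise. The mark extended over Fendrr, a long non-coding RNA gene beside Foxf1, whose body of 28229 bp was 32.4 to 45.6% covered.

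At Foxc2 (121116171 to 121118895), WT cocaine libraries had 10360, 8865 and 9385 bp under peaks and WT saline libraries 8971, 7231 and 9524 bp. In cKO mice, cocaine libraries had 8511 and 9692 bp and the cKO saline libraries 5453, 9393 and 6312 bp. In covered length the groups overlapped in all 4 comparisons. The widest peak was 8413 and 9692 bp in cKO cocaine libraries, above the cKO saline libraries with 2234, 7120 and 3733 bp. The edge on the lower-coordinate side of Foxc2 was steady, at −5144 to −2851 bp from the gene midpoint (negative towards lower coordinates, SD 539 over 11 libraries), and 1887 bp of the window were covered in none.

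The genes of a chromosome did not share 1 continuous domain, with a single exception. The 8789 bp between Foxc2 and Foxl1, the next forkhead gene, were 44.9 to 100% covered, with a median of 88.3%. A single peak covered all of this stretch in WT cocaine replicate 1 (16162 bp wide) and in WT saline replicate 3 (13329 bp wide). The 28016 bp between Foxf1 and Foxc2 were 19.3 to 32% covered. Mthfsd, a gene named for a folate enzyme domain, fills most of that stretch, and its body was 5.23 to 17.1% covered. On chromosome 13, the 64839 bp between Foxq1 and Foxf2 were 9.62 to 25.9% covered, and the 175239 bp between Foxf2 and Foxc1 2.28 to 5.51%. Apart from the stretch between Foxc2 and Foxl1, these stretches were thus covered to a smaller share than the windows of Foxc1, Foxc2, Foxf1 and Foxf2. The Foxq1 window, 17.9 to 71.8% covered, was not set apart from them in every library.

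To ask whether cocaine changed the mark at these genes in WT mice, WT cocaine and WT saline libraries were compared gene by gene. The mean covered length was higher in WT cocaine at all 9 genes, by a median factor of 1.17 and a range of 1.05 at Foxd3 to 2.53 at Foxq1. At Foxa2 this direction turned without WT cocaine replicate 1 or without WT saline replicate 2, and at Foxb1 the difference of 1458 bp was 265 bp without WT cocaine replicate 1. At Foxc1, Foxd3, Foxf1 and Foxq1, every WT cocaine library lay above every WT saline library, by means of 1880 bp (SE 576), 556 bp (SE 87.1), 1913 bp (SE 783) and 4124 bp (SE 1215). Each of these 4 had the smallest p the design allows (exact permutation test, two-sided, p = 0.1). After Benjamini-Hochberg adjustment over 21887 genes all 9 had p = 1 in the same exact permutation test, and none passed 0.05. The same order was seen for 5.81% of protein-coding genes, but for 33.3% of the 1479 genes with a peak in every library, so the 4 of 9 genes (44.4%) were close to what other well-covered genes showed. The median factor of those 1479 genes was 1.63, above that of the 9 forkhead genes.

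The peaks at these genes were also fewer and wider in WT cocaine libraries. The 9 windows together held 13, 28 and 24 peaks in WT cocaine and 37, 39 and 35 in WT saline libraries, so the groups did not overlap. They held 33 and 20 peaks in cKO cocaine and 38, 28 and 40 in cKO saline libraries, which overlapped. Over the genes with a peak in every library, the mean number of peaks per window was 4.71, 5.86 and 4.32 after cocaine and 5.68, 3.23 and 3.65 after saline in WT mice, and these groups overlapped. The widest peak was higher in every WT cocaine than in every WT saline library at Foxd3, Foxf1, Foxf2 and Foxq1, with mean ratios of 1.83, 2.57, 2.14 and 4.21. The exact permutation test gave p = 0.1 for each (two-sided, 3 against 3). This order held for 5.92% of protein-coding genes and for 34.1% of those with a peak in every library. Over the latter genes, the median widest peak was 2447, 2195 and 1555 bp after cocaine and 1285, 901 and 1026 bp after saline in WT mice. These groups did not overlap either, so wider peaks in WT cocaine libraries were not particular to the 9 genes. WT cocaine replicate 1 had the widest peak of its group at 8 of the 9 genes, Foxd3 being the exception.

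**Figure D3:**
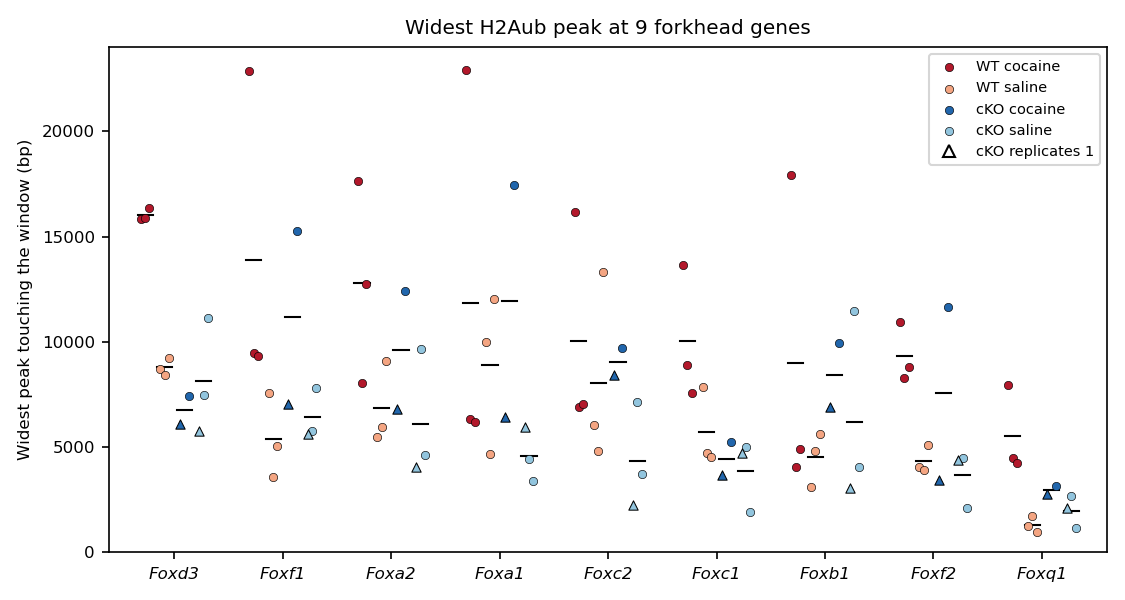
Width in bp of the widest H2Aub peak that touches each gene window, for 9 forkhead genes in the order of their mean coverage. Each point is a library, bars are group means, and triangles mark cKO cocaine replicate 1 and cKO saline replicate 1. The WT cocaine libraries lie above the WT saline libraries without overlap at Foxd3, Foxf1, Foxf2 and Foxq1.

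The summed covered length of the 9 genes depended on how the lists were made comparable. It averaged 99028 ± 9712 bp (SD, n = 3) in the WT cocaine group and 84396 ± 6241 bp (SD, n = 3) in the WT saline group, and the groups did not overlap. When each list was cut to its 7271 peaks of highest −log10 p, as many as the shortest list held, the sums were 106875, 90133 and 92598 bp after cocaine and 83358, 77191 and 87179 bp after saline in WT mice. With equal numbers of peaks, 5 of the 9 genes had groups that did not overlap, Foxf2 in addition to Foxc1, Foxd3, Foxf1 and Foxq1. The same order was then seen for 3.01% of protein-coding genes and for 30.8% of the 1219 genes with a peak in every WT library. A flank of 10 kb gave 3 such genes, Foxc1, Foxf2 and Foxq1, beside 6.73% of protein-coding genes and 31.3% of those with a peak in every WT library, and a flank of 2 kb gave 5 of 9, beside 5.30 and 31.4%. Divided by the length that each list covers in the genome, the order turned. The 9 genes then had 6393, 6217 and 9021 bp per covered Mb in WT cocaine and 7920, 13905 and 10475 in WT saline libraries. On that scale 0 of the 9 genes had every WT cocaine library above every WT saline library. The covered length of a whole list was 17.2, 15.0 and 10.4 Mb in WT cocaine and 11.1, 5.55 and 8.41 Mb in WT saline libraries, so these groups overlapped, with a higher mean after cocaine. Its part in the difference was not tested. In bulk tissue, more cells with the mark and more of the mark per cell cannot be told apart either.

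**Figure D4:**
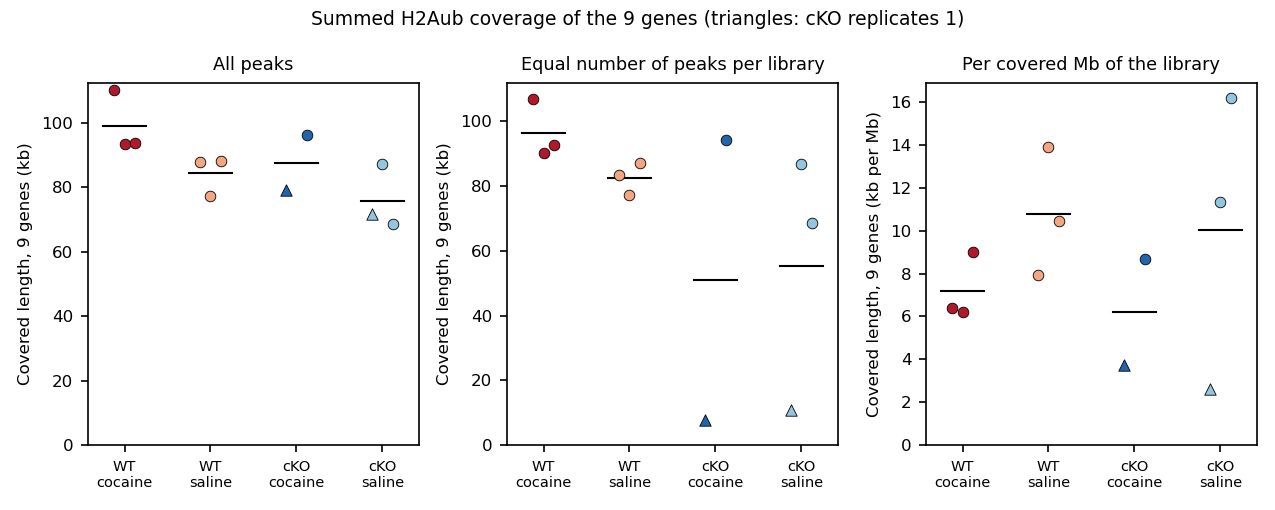
Summed covered length of the 9 forkhead genes per library, from all peaks (left, kb), from 7271 peaks per library (middle, kb) and per Mb covered in the whole list (right, kb per Mb). Points are libraries, bars are group means and triangles are cKO cocaine replicate 1 and cKO saline replicate 1. WT cocaine lies above WT saline in the left and middle panels and mostly below it in the right panel.

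In cKO mice, cocaine and saline libraries overlapped in covered length at 8 of the 9 genes. Foxf1 was the exception, with a mean difference of 2381 bp (SE 863, exact permutation test, two-sided p = 0.1, 2 against 3). The order of Foxf1 was seen for 2.52% of protein-coding genes and 15.6% of those with a peak in every library, so 1 of 9 genes was near this background. The widest peak was higher in every cKO cocaine than in every cKO saline library at Foxa1, Foxc2 and Foxq1, and overlapped at Foxf1. These 3 of 9 genes (33.3%) compare with 3.76% of protein-coding genes and 20.4% of those with a peak in every library. The mean covered length was higher in cKO cocaine at 8 genes and lower at Foxd3, by a median factor of 1.22 over the 9 genes and 1.37 over the 1479 genes. In bp per covered Mb the difference was negative at those 8 genes too, from −54.3 at Foxq1 to −615 at Foxa2. With equal numbers of peaks it turned negative at Foxa2, Foxb1, Foxc1, Foxc2 and Foxq1, but not without both libraries that stood apart. From all peaks, single libraries set some directions. Foxd3 was 451 bp higher without cKO cocaine replicate 1. Foxb1 and Foxc1 differed by −501 and −556 bp without cKO cocaine replicate 2. They differed by −393 and −190 bp without cKO saline replicate 3. The sum over the 9 genes was 79066 and 96083 bp in cKO cocaine and 71817, 87033 and 68709 bp in cKO saline libraries. Without both libraries that stood apart, cKO cocaine replicate 2 alone was above both remaining cKO saline libraries at 7 genes, Foxa2 and Foxb1 being the others. That order held for 78.1% of the genes with a peak in every library, so the 7 of 9 genes were close to that background. The sum was then 18212 bp higher in the lone cKO cocaine library, which lay above both cKO saline libraries. The widest peak was higher in that library at 7 genes, all but Foxb1 and Foxd3, beside 65.0% of the genes with a peak in every library.

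Whether the cocaine difference itself differed between genotypes was tested over all 200 arrangements of treatment within genotype. The difference was 2946 bp larger in WT than in cKO mice at Foxq1 (exact permutation test, two-sided p = 0.255). It was 1598 bp larger at Foxc1 (exact permutation p = 0.225) and 1019 bp larger at Foxd3 (exact permutation p = 0.185). At the other 6 genes the p of the same exact permutation test was 0.575 to 0.9, and all 9 adjusted p-values were 1. Without the 2 libraries that stood apart, which leaves 1 cKO cocaine library and 60 arrangements, the difference was 1535 bp at Foxq1, 515 bp at Foxc1 and 369 bp at Foxd3. The exact permutation p over the 9 genes was then 0.25 to 0.933, and all adjusted p-values were 1. With all libraries the design could have given 0.005, so a difference between genotypes in the response of these genes was not shown.

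Between genotypes, Foxc1 was the gene whose covered length was lower in every cKO than in every WT library under both treatments. The cKO minus WT difference in its mean was −1131 bp under saline (SE 690, exact permutation test, two-sided p = 0.1). Under cocaine it was −2730 bp (SE 884, exact permutation test, two-sided p = 0.1). Foxd3 was also lower in every cKO cocaine than in every WT cocaine library, where its window was full. In covered length the groups overlapped at the other 8 genes under saline and at the other 7 under cocaine. Every cKO saline library lay below every WT saline library for 0.370% of protein-coding genes and for 3.38% of those with a peak in every library. For cocaine these shares were 1.77 and 12.8%. In the widest peak, the genotypes overlapped at all 9 genes under saline, where 0.535% of protein-coding genes and 4.87% of those with a peak in every library were lower in cKO. Under cocaine the widest peak was lower in every cKO than in every WT library at Foxc1, Foxd3 and Foxq1, as at 2.47 and 16.7% of these genes. Without both libraries that stood apart, the widest peak was lower in cKO at Foxa1 under saline, beside 17.7% of the genes with a peak in every library, and at the same 3 genes under cocaine, beside 40.4%, while it was higher at Foxf2 under cocaine, beside 10.1%. Without both libraries that stood apart, which leaves 1 cKO cocaine library, the differences in the covered length of Foxc1 were −1377 bp under saline and −1892 bp under cocaine. Groups that do not overlap cannot come to overlap when libraries are left out, and in that setting 20.7% of the genes with a peak in every library had this order under saline and 42.9% under cocaine. The saline difference was −629 bp without WT saline replicate 1 and −659 bp without cKO saline replicate 3. The Foxc1 groups under saline overlapped with a flank of 2 kb (−420 bp) or 10 kb (−652 bp), with equal numbers of peaks (−3221 bp, and −1227 bp without cKO saline replicate 1) and per covered Mb (−141 bp per Mb), and those under cocaine overlapped per covered Mb (−223 bp per Mb). Without both libraries that stood apart, the values per covered Mb turned, to 204 bp per Mb under saline and 8.28 bp per Mb under cocaine. The 2 comparisons with cKO cocaine and the 2 with WT saline share libraries, so they are not independent of each other.

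In fold enrichment over input, as the authors' peak caller gave it, the 9 genes were alike and moderate. The highest value in a window was 3.65 to 5.64 in the 9 libraries that did not stand apart. In cKO cocaine replicate 1 it was 4.89 to 14.9, and in cKO saline replicate 1 it was 4.62 to 10.3, with Foxf1 highest in both. The peak with the value of 14.9 was 2317 bp wide and centred at −7440 bp from the Foxf1 midpoint, inside the body of Fendrr. Cut to 7271 peaks per library, Foxf1 was the gene that kept a peak in cKO cocaine replicate 1, beside 3095 of the 21887 protein-coding genes. In cKO saline replicate 1, Foxa1, Foxa2, Foxc1 and Foxf1 kept one, beside 3267 of the 21887. In the other 9 libraries, all 9 genes kept a peak, as did 4.62% of protein-coding genes, and over all 11 libraries Foxf1 did so beside 1.63%.

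**Figure D5:**
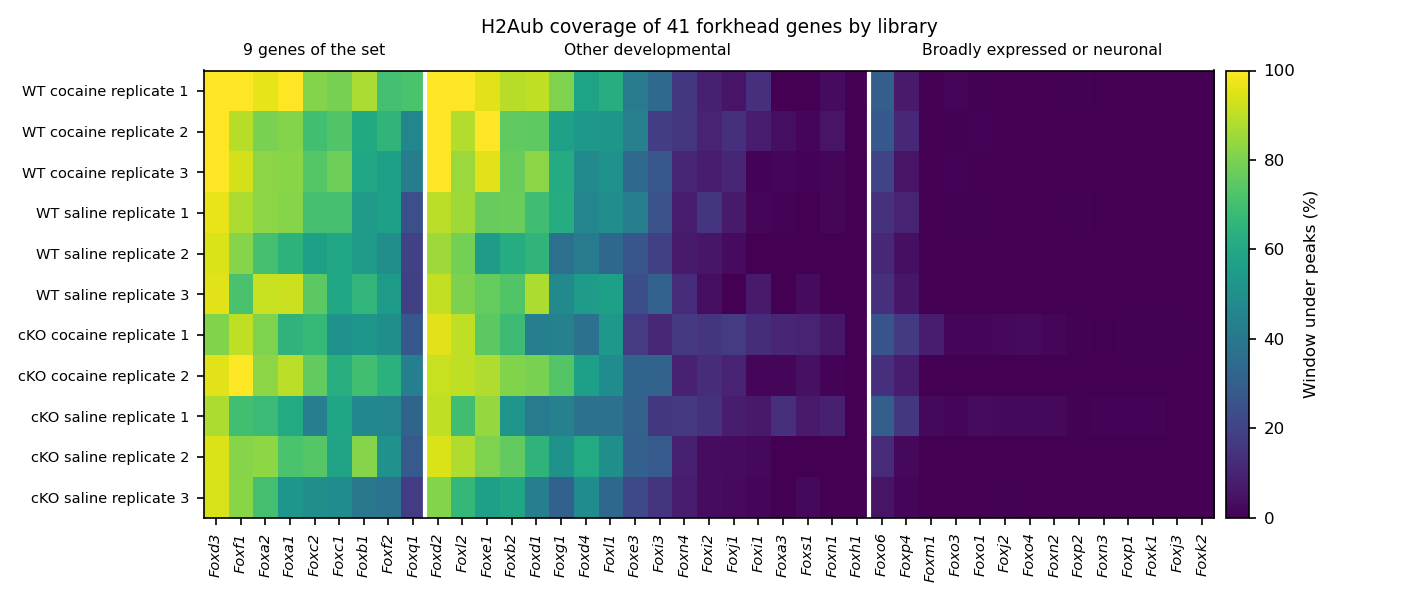
Share of the gene window under H2Aub peaks (percent, colour scale) for 41 forkhead genes in 11 libraries, with the 9 genes described here on the left, 18 other developmental forkhead genes in the middle and 14 broadly expressed or neuronal ones on the right. The 14 genes on the right average 0.0269 to 18.6% of the window, whereas the 9 genes on the left average 33.8 to 94.5%.

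The other forkhead genes place the 9 genes within their family, as a description only, since the 9 were chosen with earlier results known. Of 18 other developmental forkhead genes, 12 had a peak in all 11 libraries and 1, Foxh1, in none. Their windows were covered by a median of 27.5%, and the range of 0 to 92.6% took in that of all but Foxd3 among the 9 genes. Foxd2 (92.6%), Foxl2 (84.0%) and Foxe1 (80.3%) had mean coverages like those of Foxd3, Foxf1 and Foxa2. Of 14 broadly expressed or neuronal forkhead genes, 3 had a peak in every library, namely Foxo6, Foxp4 and Foxp2. Their windows were covered by a median of 0.369%, and 6 of the 14 had no peak in any of the 9 libraries that did not stand apart. Long genes of that list have long windows, so their covered share is lower for the same covered length. The median covered length was 380 bp for that list, 3618 bp for the other developmental genes and 8898 bp for the 9 genes, against 35.7 bp over all protein-coding genes.

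Over the 11 libraries, the covered length per covered Mb of the 9 genes summed ran most closely with that of Foxb2, Dlx1, Sim2, Gata6 and Hoxa2, all genes of developmental transcription factors (Pearson r of 0.995 to 0.997, among 3373 genes compared, and of 0.991 to 0.996 over the 9 libraries that did not stand apart). Members of the set and genes overlapping their windows were left out of this comparison. The points share the covered length of their library as a divisor, and the median r over the genes compared was −0.14, so the values are a description only.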

How the data were processed

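H2Aub ChIPmentation lists of 11 thalamus libraries were analysed; 4 input libraries have no list here. Per the study's methods and the submitters' processing notes, the authors trimmed reads with Cutadapt, mapped them to mm10 with Bowtie2 (2.3.4.1), filtered them with SAMtools and called broad peaks with MACS2 (2.1.1.20160309.3) against input, per library and unpooled. Each deposited list gives peak positions, a whole-number score derived by the authors' caller from q, a fold enrichment ratio over input, and −log10 p and −log10 q. Lists run to q = 0.0997, past the study's 0.05, and all peaks were used. Without read counts, depth is unknown and only list length could be equalised.

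Autosomal, X and Y peaks were joined by position to 49943 genes of GRCm38.p6 (mm10 coordinates), 21887 of them protein-coding. The table gives no strand, so sides are named by coordinate. Promoter sequences were not analysed here. Covered length per window was compared by exact permutation tests over libraries, two-sided, adjusted over all protein-coding genes (Python 3.11.15, numpy 2.4.6, pandas 2.3.3, scipy 1.17.1). Functions were tested on simulated data. Where tests cannot reach 0.05, groups that do not overlap are counted beside the same share of genes. The genes, lists and comparisons were chosen with earlier results of these data known. All 9 genes are named, with the 3 most covered of each other forkhead list, genes without any peak, neighbours and the 5 genes most like the set. The bp per covered Mb counts and their values without single libraries, and equal peak numbers, bp per covered Mb, widest peaks, the genotype difference of the cocaine effect, window coverage and likeness without both cKO replicates 1, were added after seeing the data.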

Additional observations from a re-analysis of the deposited data

How the results depend on the processing

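Of 531 values of single genes under the alternatives, 88 turned direction, 80 of them at genes whose groups had overlapped. Leaving out 1 of the libraries turned 19 of 198; q at most 0.05, log2 of bp plus 100 and a flank of 10 kb turned none. The 8 at genes whose groups had not overlapped turned in bp per covered Mb. With all libraries these were, for WT cocaine minus WT saline, −337 at Foxc1, −616 at Foxd3 and −477 at Foxf1, and for cKO cocaine minus cKO saline −581 at Foxf1. Without both cKO replicates numbered 1 they were −827 at Foxf1 for cKO cocaine minus cKO saline, 204 at Foxc1 for cKO saline minus WT saline, and 8.28 at Foxc1 and 159 at Foxd3 for cKO cocaine minus WT cocaine. The values between genotypes at Foxc1 and Foxd3 turned only where both cKO replicates numbered 1 were also left out. The other values turned on dividing by the covered length of each list alone.

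In bp per covered Mb, the sum over the 9 genes was −3556 for WT cocaine minus WT saline, and 0 of 9 genes, against 4, had every WT cocaine above every WT saline library, with 2.83% of protein-coding genes and 8.59% of those with a peak in every library. That sum was −3147, −3059 and −4461 without WT cocaine replicates 1, 2 and 3, and −4979, −1987 and −3702 without WT saline replicates 1, 2 and 3. For cKO cocaine minus cKO saline it was −3849, or −1364 and −6334 without cKO cocaine replicates 1 and 2, −7575, −3204 and −768 without cKO saline replicates 1, 2 and 3, and −5090 without both cKO replicates numbered 1. For cKO saline minus WT saline it was 3017 without cKO saline replicate 1 (also without both), −3790 without cKO saline replicate 3 and 860 without WT saline replicate 2, against −709 with all. For cKO cocaine minus WT cocaine it was 1483 without cKO cocaine replicate 1 (also without both) and −3487 without replicate 2, against −1002.

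With equal numbers of peaks, the sum was −4403 bp for cKO cocaine minus cKO saline, −27181 bp for cKO saline minus WT saline and −45544 bp for cKO cocaine minus WT cocaine, but 16586 bp, −4848 bp and −2220 bp without both cKO replicates numbered 1, whose own sums were 7668 and 10727 bp. Foxf1 was then the 1 gene with a peak in every library, against all 9 without both.

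From all peaks, leaving out single libraries, which can only keep or add genes with every WT cocaine above every WT saline library, gave 4 to 5, while the share of genes with a peak in every library that showed the same order went from 31.6 to 61.7%, highest without WT cocaine replicate 3. The sums were 9025 to 17509 bp for WT cocaine minus WT saline, lowest without WT cocaine replicate 1, and 3213 to 20230 bp for cKO cocaine minus cKO saline, without cKO cocaine replicates 2 and 1. They were −14133 to −4971 bp for cKO saline minus WT saline, without cKO saline replicates 2 and 3, and −19962 to −2945 bp for cKO cocaine minus WT cocaine, without cKO cocaine replicates 2 and 1, with −5847 bp without WT cocaine replicate 1. Replicate numbers did not pair WT samples: deviations of same-numbered WT libraries correlated at −0.000689 to 0.103, and 2 of 6 libraries were closest to their own number. In the 2 same-numbered pairs of cKO libraries they correlated at 0.627 and 0.463. With only 2 cKO cocaine libraries these 2 values are not independent, so they do not show that the cKO samples were paired. Between cKO saline and WT saline libraries of the same number, the values were 0.375, −0.0230 and −0.0466 for replicates 1, 2 and 3. With a replicate block, the sums were 14632 bp (3 of 3 pairs higher) for WT cocaine minus WT saline, 8150 bp (2 of 2 higher) for cKO cocaine minus cKO saline, −8543 bp (1 of 3 higher) for cKO saline minus WT saline and −14183 bp (1 of 2 higher) for cKO cocaine minus WT cocaine. Depth is unknown, windows cap the values at Foxd3 and Foxf1, and libraries are pools.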

Other observations

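Treatment differences in covered length at the other forkhead genes were counted in the same way, beside the shares of genes with a peak in every library given for the 9 genes. Among 18 other developmental forkhead genes, Foxd2 and Foxe1 had every WT cocaine library above every WT saline library (33.3% of those genes did), and none had the reverse. In cKO mice, Foxj1 and Foxl2 did so (15.6%, and 2.52% of protein-coding genes), and Foxj1 had a peak in only 10 libraries. The median difference over the list was 1020 bp in WT and 569 bp in cKO mice, against 1458 and 1177 bp over the 9 genes. Every cKO saline library was below every WT saline library at Foxd1 (3.38%). Every cKO cocaine library was below every WT cocaine library at Foxd2, Foxe1 and Foxe3 (12.8%) and above at Foxi2 and Foxs1 (3.38%, and 3.60% of protein-coding genes). Among 14 broadly expressed or neuronal forkhead genes, Foxo6 was higher in every WT cocaine than in every WT saline library (33.3%, and 5.81% of protein-coding genes). Foxn3 was higher in every cKO cocaine than in every WT cocaine library (3.60% of protein-coding genes), with a peak in only 6 libraries. Of the 14 genes, 7 had no peak in any WT library. These genes were named after their values were seen.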
